A study of Homo sapiens with 80 samples.

Results

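Cholesterol and fatty acid synthesis was followed through 33 genes, taken as a named list and found by symbol in the RNA-seq and DGE tables and by Ensembl identifier in the PRO-seq table. All 33 were present among the 58735 genes of each RNA-seq table. The PRO-seq table of 17792 genes held 31 of them, without FADS2 and ABCG1, and the DGE table of 17463 genes also held 31. The list has 8 genes of the mevalonate pathway, 10 of sterol synthesis from squalene onward, 4 regulators, 8 of fatty acid synthesis and desaturation, and 3 of sterol transport.

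The study asked how T-cell lymphoma cells become resistant to lenalidomide, and its 80 samples include 42 libraries with gene counts, in 14 groups of 3; the 38 ChIP-seq samples were not analysed here. The cells were SU-DHL-1 or KI-JK, both established from anaplastic large cell lymphoma that carries an ALK fusion, SU-DHL-1 grown in 10% serum and KI-JK, from a pleural effusion, in 20%. Parental SU-DHL-1 was compared with regrown cells, 3 independent pools selected under rising lenalidomide and then kept without the drug for at least 2 months, by PRO-seq, which counts RNA still being made by engaged polymerase. DGE, which counts transcript ends, covered parental and regrown cells after 18 h with DMSO or with 2.5 uM lenalidomide. RNA-seq covered parental and regrown cells that carried Cas9 and a doxycycline-inducible guide RNA to ZFP91, without doxycycline or after 96 h at 1 ug/ml, and SU-DHL-1 and KI-JK cells that carried a CSNK2B vector or an empty vector. In the ZFP91 experiment the agent and the knockout cannot be told apart, because the control cells received no doxycycline. ZFP91 is a zinc finger protein that lenalidomide can direct to degradation, and CSNK2B encodes the regulatory subunit of casein kinase 2. Beyond the regrown pools, the labels do not say that replicates were separate cultures, so p-values measure the spread between libraries, which may be technical.

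Cells make cholesterol from acetyl-CoA by way of mevalonate, squalene and lanosterol, and make fatty acids from the same acetyl-CoA. The transcription factors SREBP-1 and SREBP-2, products of SREBF1 and SREBF2, switch on most of these genes: SCAP carries them to the Golgi for cleavage when sterols are low, and INSIG1 holds them in the endoplasmic reticulum when sterols are high. Liver X receptors respond to oxysterols and raise the efflux pumps ABCA1 and ABCG1. SREBPs are known to act on promoters together with NF-Y, which binds CCAAT, and Sp1, which binds GC boxes.

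Promoter sequences from RefSeq (GRCh38.p14), cut at the 250 bases before each listed start, were available for 28 of the 33 genes. They are shown for 4 genes that fell with the CSNK2B vector in KI-JK and for HSD17B7, which rose there. For a gene with several listed starts, the start with the most CCAAT matches is shown. All are written along the gene's strand, 5′ to 3′, and capitals mark CCAAT or its reverse complement ATTGG and, in SREBF2, one match to the sterol regulatory element core TCACNCCAC.

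INSIG1 (chr7:155297628-155297877, plus strand): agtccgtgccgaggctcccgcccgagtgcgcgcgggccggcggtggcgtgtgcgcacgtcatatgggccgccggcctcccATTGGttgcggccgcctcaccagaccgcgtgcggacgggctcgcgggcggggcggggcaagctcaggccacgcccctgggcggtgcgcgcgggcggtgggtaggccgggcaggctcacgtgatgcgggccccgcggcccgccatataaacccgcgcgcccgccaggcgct
MSMO1 (chr4:165327419-165327668, plus strand): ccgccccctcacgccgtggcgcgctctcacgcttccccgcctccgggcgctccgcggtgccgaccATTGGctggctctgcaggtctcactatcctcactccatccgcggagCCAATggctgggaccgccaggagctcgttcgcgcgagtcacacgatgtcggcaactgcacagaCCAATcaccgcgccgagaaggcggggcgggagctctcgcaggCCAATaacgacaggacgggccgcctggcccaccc
HMGCS1 (chr5:43313413-43313662, minus strand): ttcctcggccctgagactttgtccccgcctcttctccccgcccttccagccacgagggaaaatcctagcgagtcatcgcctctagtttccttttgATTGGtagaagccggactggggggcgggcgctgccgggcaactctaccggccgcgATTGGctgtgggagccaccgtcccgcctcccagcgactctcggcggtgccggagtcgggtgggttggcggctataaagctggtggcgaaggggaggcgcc
SREBF2 (chr22:41832855-41833104, plus strand): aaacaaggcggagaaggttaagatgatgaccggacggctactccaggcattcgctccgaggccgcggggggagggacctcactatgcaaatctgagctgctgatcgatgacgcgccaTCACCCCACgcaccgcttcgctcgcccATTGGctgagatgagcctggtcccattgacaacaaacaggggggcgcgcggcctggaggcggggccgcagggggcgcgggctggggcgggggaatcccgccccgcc
HSD17B7 (chr1:162790452-162790701, plus strand): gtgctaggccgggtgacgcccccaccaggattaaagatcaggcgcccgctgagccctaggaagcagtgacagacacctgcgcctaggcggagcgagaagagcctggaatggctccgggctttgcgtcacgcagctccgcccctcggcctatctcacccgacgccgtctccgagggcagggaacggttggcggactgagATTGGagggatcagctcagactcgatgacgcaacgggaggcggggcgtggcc

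Searched on both strands, CCAAT was present in 20 of the 28 promoters (71.4%), against 37% of the 27305 genes with a promoter in the same source. A gene was counted when any of its listed starts held the letters. In the sequences shown, MSMO1 held 4 matches, 3 of them as read, HMGCS1 held 2, and INSIG1, SREBF2 and HSD17B7 held 1 each. The other listed start of HMGCS1 held 0. The GC box GGGCGG was present in 27 of the 28 (96.4%) against 46.2% of all genes. TCACNCCAC was found only in SREBF2 (3.57% of the 28, 1.09% of all genes), as TCACCCCAC beginning 133 bases before the start. Only this exact string was searched, so its absence does not show that a promoter lacks a site for SREBPs. No match of one motif overlapped a match of another in these promoters.

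A PRO-seq library held 33467869 to 47199672 counts, an RNA-seq library 14444523 to 28927808 and a DGE library 41571 to 395827. Levels below are in CPM, a count relative to the scaled total of its library, which is not corrected for gene length, so they compare samples and not genes. Called genes are those with an adjusted p under 0.05 in edgeR's quasi-likelihood test, and each change is a log2 value ± SE with 3 libraries a group. The 5 markers of this lymphoma (ALK, TNFRSF8, IRF4, BATF3 and STAT3) were at 1 CPM or more in every group, while of the 5 T-cell markers CD2, CD3E, CD4 and LCK were at or near 0 in RNA-seq. The remaining one, TRBC2, was at 1.01, 0.672 and 0.568 CPM in parental and 9.67, 8.82 and 9.44 CPM in regrown cells without doxycycline, and at 1.04, 1.51 and 1.28 CPM in SU-DHL-1 and 9.08, 9.45 and 8.83 CPM in KI-JK with the empty vector; its part in the results below was not tested. The guide to ZFP91 changed its RNA little: 109, 113 and 107 CPM without and 92.4, 85.2 and 85.4 CPM with doxycycline in parental cells (-0.34 ± 0.08, adjusted p = 0.158). In regrown cells the ZFP91 values were 96.7, 97 and 89.6 CPM without and 101, 83.5 and 78.1 CPM with doxycycline (-0.12 ± 0.10, adjusted p = 0.395), and cutting can leave RNA in place, so this does not check the label. The CSNK2B vector raised CSNK2B from 30.6, 29 and 29.4 to 248, 253 and 238 CPM in SU-DHL-1 and from 18.6, 15.9 and 18.5 to 82.5, 82 and 77.8 CPM in KI-JK.

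**Figure D1:**
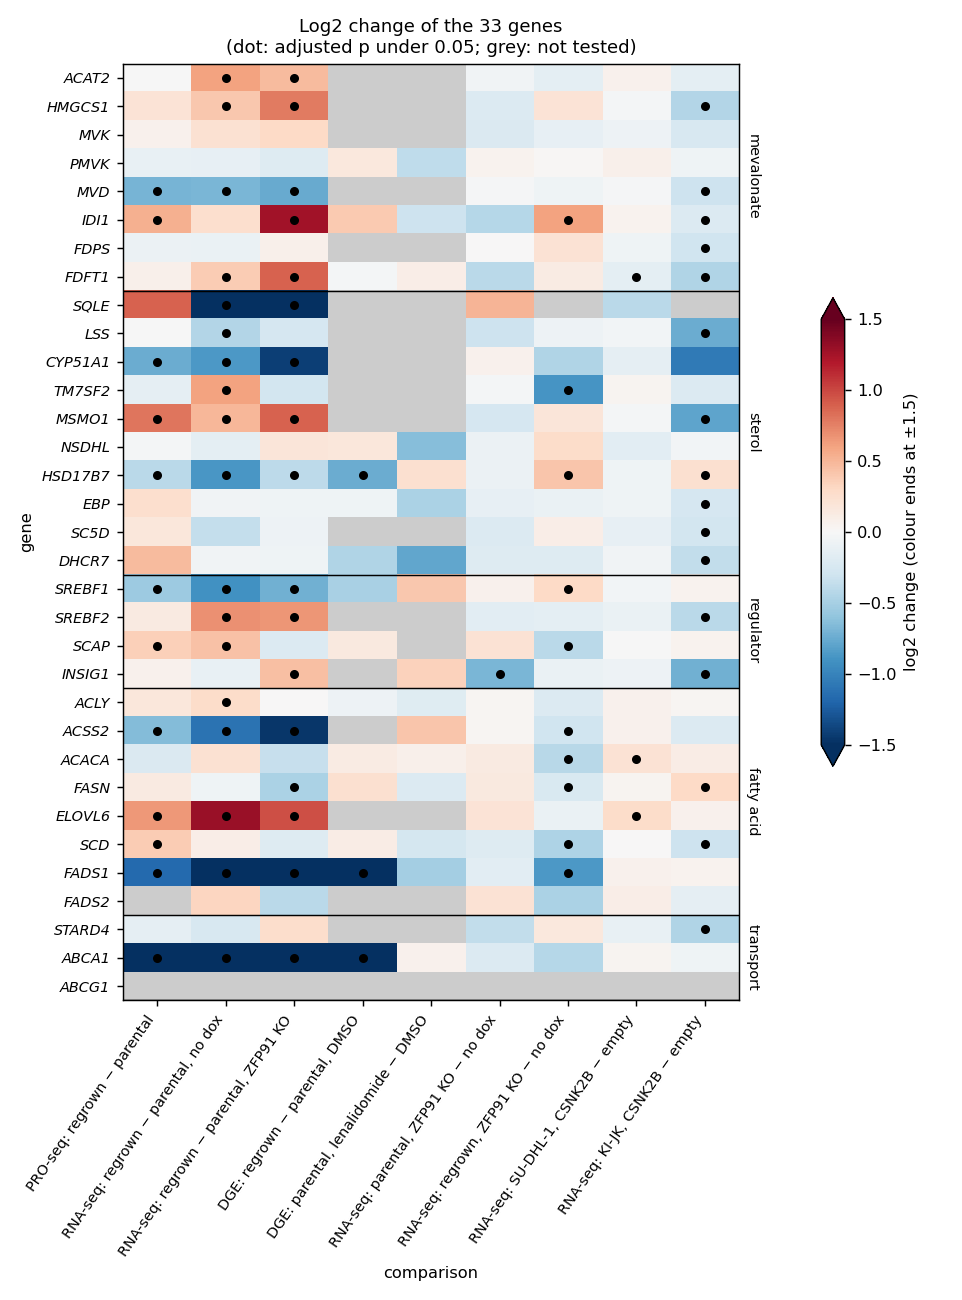
Log2 changes (colour, ending at 1.5 in each direction) of the 33 genes, ordered by role, in 9 comparisons; dots mark adjusted p under 0.05 and grey cells genes that were not tested. The KI-JK column has dots on blue cells (lower) for 5 of 8 mevalonate and 5 of 9 tested sterol genes, while the SU-DHL-1 column next to it holds 3 dots in all.

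In KI-JK most of the members that changed with the CSNK2B vector were lower, and most of those belong to cholesterol synthesis. Of 31 genes tested, 14 fell and 2 rose, 45.2% and 6.45%, against 17.3% lower and 18.4% higher of the 14104 genes tested. The members' median log2 change was -0.21 and that of all genes -0.01. By role, 5 of 8 mevalonate genes, 5 of 9 tested sterol genes, 2 of 4 regulators, 1 of 8 fatty acid genes and 1 of 2 transport genes fell.

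Among the regulators, INSIG1 stood at 170, 164 and 173 CPM with the empty vector and at 103, 97.9 and 106 CPM with the CSNK2B vector. The lowest empty-vector library lay far above the highest CSNK2B library, and the change was -0.72 ± 0.04 (adjusted p = 2.62e-11). SREBF2 went from 217, 213 and 223 CPM to 159, 171 and 168 CPM (-0.40 ± 0.04, adjusted p = 7.24e-08), again without overlap. SREBF1 measured 56.2, 54.7 and 56.9 CPM against 58.2, 57.4 and 58.7 CPM (0.05 ± 0.05, adjusted p = 0.438). SCAP measured 99.9, 100 and 108 CPM against 101, 106 and 112 CPM (0.05 ± 0.05, adjusted p = 0.446). So 2 of the 4 regulators were called, both lower.

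In the mevalonate pathway, HMGCS1, the synthase that makes HMG-CoA, went from 108, 103 and 108 CPM to 75.7, 81.9 and 77.3 CPM (-0.44 ± 0.05, adjusted p = 1.25e-07). FDFT1, squalene synthase, went from 130, 117 and 119 CPM to 89, 87.2 and 91.6 CPM (-0.45 ± 0.05, adjusted p = 1.12e-07). FDPS, farnesyl diphosphate synthase, went from 103, 99.7 and 96.8 CPM to 83.5, 83.1 and 77 CPM (-0.30 ± 0.05, adjusted p = 2.41e-05). In each of these 3 genes every CSNK2B library was below every empty-vector library. MVD, the mevalonate diphosphate decarboxylase, fell by 0.31 on the log2 scale (adjusted p = 0.0106), a call lost without empty-vector library 3 or CSNK2B library 1. IDI1, which isomerises isopentenyl diphosphate, fell by 0.21 (adjusted p = 0.0108) and lost its call without empty-vector library 3. The thiolase ACAT2 and the kinases MVK and PMVK had changes of -0.15, -0.24 and -0.07 and were not called.

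Of the sterol enzymes, MSMO1, a methylsterol oxidase, went from 59, 63.5 and 61.1 CPM to 35.6, 34.7 and 35.7 CPM (-0.79 ± 0.05, adjusted p = 3.12e-10). LSS, which closes squalene epoxide into lanosterol, went from 10.6, 11.6 and 12.5 CPM to 7.64, 6.47 and 6.8 CPM (-0.74 ± 0.12, adjusted p = 3.03e-05). Both sets of libraries were apart in these genes, and of the called members MSMO1 fell most. CYP51A1, the lanosterol demethylase, had a larger change that was not called: 0.857, 0.593 and 0.99 CPM against 0.268, 0.341 and 0.529 CPM (-1.06 ± 0.45, adjusted p = 0.0719), resting on 59 and 29 counts. TM7SF2 and NSDHL were not called either, at -0.21 and -0.04. DHCR7, the reductase that yields cholesterol, fell by 0.37 (78.1, 69.4 and 73.6 CPM to 57, 57.5 and 56.4 CPM, adjusted p = 6.8e-06). The isomerase EBP fell by 0.25 (adjusted p = 0.00196). The desaturase SC5D fell by 0.28 (adjusted p = 0.0215), and that call was lost on leaving out either of empty-vector libraries 1 and 2 or either of CSNK2B libraries 1 and 3. HSD17B7, a keto reductase of the same branch, moved the other way: it rose from 155, 154 and 150 CPM to 186, 179 and 179 CPM (0.24 ± 0.04, adjusted p = 2.91e-05). HSD17B7 has near-identical copies in the genome that the counting could mix with it, so its values are uncertain in all comparisons.

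Fatty acid genes did not share the direction. FASN, the fatty acid synthase, rose from 437, 451 and 463 CPM to 546, 568 and 548 CPM (0.30 ± 0.03, adjusted p = 7.61e-07). SCD, which desaturates stearoyl-CoA, went from 284, 279 and 291 CPM to 224, 225 and 239 CPM (-0.31 ± 0.04, adjusted p = 9.81e-07). Neither pair of groups overlapped, so the synthase and the desaturase moved apart. ACLY, ACACA, ELOVL6, FADS1, FADS2 and ACSS2 were not called, with changes from -0.21 to 0.11. In transport, the cholesterol carrier STARD4 went from 22, 18.3 and 19.3 CPM to 13.3, 14.7 and 15.5 CPM (-0.45 ± 0.09, adjusted p = 0.000372), and the efflux pump ABCA1 had a change of -0.06 ± 0.06.

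The same vector did less to these genes in SU-DHL-1, where CSNK2B rose by 3.06 on the log2 scale against 2.19 in KI-JK. There 2 of 32 members rose and 1 fell, 6.25% and 3.12%, against 3.39% higher and 3.34% lower of all genes. ELOVL6, the elongase, rose from 24.5, 22.2 and 22.6 CPM to 26.6, 29.1 and 28.6 CPM (0.28 ± 0.07, adjusted p = 0.00721). ACACA, acetyl-CoA carboxylase, rose from 127, 123 and 122 CPM to 139, 143 and 149 CPM (0.22 ± 0.04, adjusted p = 0.000904). Each of these 2 fatty acid genes had its CSNK2B libraries above its empty-vector libraries. The 24 nearest tested genes had a median of 0.26 around ACACA, with 15 of them called higher, and of 0.04 around ELOVL6, with 1 called higher. FDFT1 fell by 0.15 (126, 125 and 123 CPM to 116, 112 and 107 CPM, adjusted p = 0.0299), and that call was lost without any 1 of 5 of the 6 libraries (all but CSNK2B library 1) and without the filter on low counts. INSIG1 measured 64, 65.4 and 59.7 CPM against 56.6, 59.5 and 61.2 CPM (-0.08 ± 0.05), and MSMO1 28.5, 27.9 and 28.5 CPM against 28.4, 27.1 and 26.9 CPM (-0.03 ± 0.06).

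**Figure D2:**
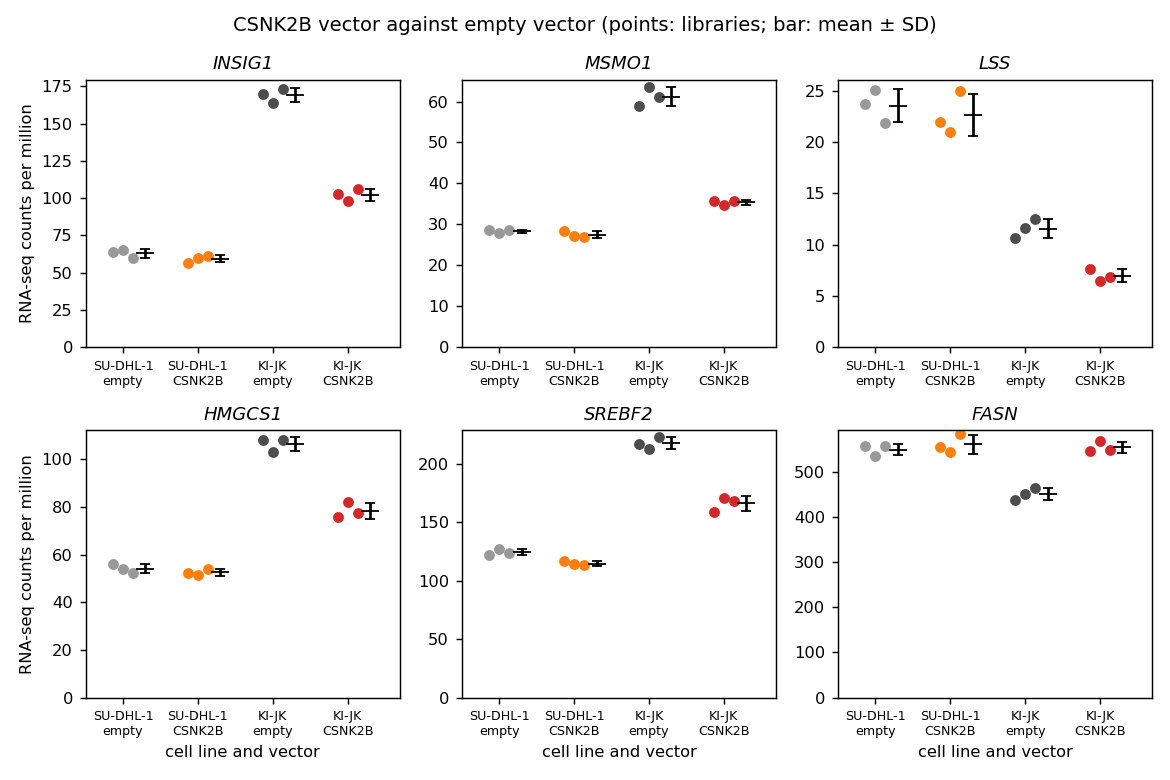
RNA-seq levels (CPM) of 6 genes by cell line and vector; points are the 3 libraries of a group and the bar is their mean ± SD. INSIG1 drops from 164 to 173 CPM to 97.9 to 106 CPM in KI-JK and overlaps between vectors in SU-DHL-1, and FASN rises only in KI-JK among these groups (interaction 0.27).

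The difference between the 2 responses was itself tested as an interaction, KI-JK minus SU-DHL-1. It was called lower for 12 and higher for 2 of 32 members (37.5% and 6.25%), against 8.44% lower and 10.7% higher of all genes. The largest called differences on well-counted genes were MSMO1 (-0.75 ± 0.08, adjusted p = 6.26e-08), LSS (-0.68 ± 0.13, adjusted p = 0.000387) and INSIG1 (-0.63 ± 0.07, adjusted p = 6.41e-08). HSD17B7 (0.32 ± 0.05) and FASN (0.27 ± 0.05) were the 2 higher ones. Scaling by library totals alone turned the split of all called genes from 1671 higher and 1313 lower to 1287 and 1611, while the members gave 2 higher and 13 lower. The lines, their serum and their separately deposited tables cannot be told apart in this difference.

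Of the promoters above, all 13 with a sequence among the members that fell in KI-JK held CCAAT, against 7 of the 15 other members tested there (46.7%). The groups were defined by the measured change, so this is a description without a test. HSD17B7 shows that a gene that rose can hold the same letters. By role, CCAAT was in 5 of 6 mevalonate and 8 of 9 sterol genes with a sequence. It was in 2 of 4 regulators, 4 of 7 fatty acid genes and 1 of 2 transport genes. Most fallers were mevalonate or sterol genes, and the part of role in this contrast was not tested. GGGCGG was in 13 of the 13 and in 14 of the 15 (93.3%).

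Among 32 further lipid genes listed beside the members, 27 were tested in KI-JK, of which 6 fell and 4 rose (22.2% and 14.8%), shares near the 17.3% and 18.4% of all genes. The fallers were INSIG2, the second INSIG (-0.51), the citrate carrier SLC25A1 (-0.35), the sterol carrier NPC2 (-0.33), the liver X receptor gene NR1H2 (-0.25), LBR, which has sterol reductase activity (-0.20), and LPIN1 (-0.17). The risers were MCAT (0.36), the protease MBTPS2 that cuts SREBPs (0.21), ELOVL5 (0.18) and ACSL1 (0.14). In the same libraries 2 of 5 myeloid markers were at 1 CPM or more, with a summed level of 138 to 143 CPM for the empty and 162 to 166 CPM for the CSNK2B vector. CD163 rose from 6.08, 5.26 and 4.74 CPM to 31.8, 34 and 31 CPM. CSF1R made up most of the sum and did not rise, at 136, 136 and 133 CPM against 134, 129 and 131 CPM. LYZ, CD14 and CD68 were at most 0.564 CPM. The 5 epithelial and stromal markers summed to 5.38 to 29.5 CPM with the empty and 1.96 to 10.1 CPM with the CSNK2B vector, with overlap. Of the 5 B-cell markers PAX5 alone reached 1 CPM in KI-JK. It had 11, 11.9 and 12 CPM with the empty and 9.29, 9.29 and 8.81 CPM with the CSNK2B vector. In SU-DHL-1 PAX5 was at most 0.154 CPM with either vector. The part of these lists in the lipid results was not tested. In bulk cultures fewer cells of a kind and less RNA per cell cannot be told apart.

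Between lenalidomide-regrown and parental SU-DHL-1, members were called in both directions. In PRO-seq 5 of 31 members were called higher and 7 lower (16.1% and 22.6%), against 14% and 16.2% of 16456 genes. In RNA-seq without doxycycline 9 of 32 were higher and 9 lower (28.1% each), against 22.6% and 21.1% of 13379 genes. The members' shares were near those of all genes in both assays, with medians of 0.06 and -0.06. By role, RNA-seq called 37.5% of 8 mevalonate genes higher and 12.5% lower, and 20% of 10 sterol genes higher and 40% lower. PRO-seq called 12.5% and 12.5% of the mevalonate and 10% and 20% of the sterol genes. Whether roles differ from all genes was not tested. Scaling the RNA-seq by library totals alone moved the median of all genes from -0.003 to -0.101 and their calls from 3023 higher and 2827 lower to 2415 and 3546, with 8 members higher and 11 lower.

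The clearest loss was ABCA1, which pumps cholesterol out of cells. In PRO-seq it stood at 409, 433 and 419 CPM in parental and at 111, 92.6 and 136 CPM in regrown cells (-1.89 ± 0.14, adjusted p = 1.04e-05). In RNA-seq it went from 137, 175 and 131 CPM to 60.5, 35 and 42.8 CPM (-1.68 ± 0.17, adjusted p = 2.6e-06). No regrown library reached a parental one in either assay, and the 24 nearest tested genes on the chromosome had a median change of 0.21 in PRO-seq and 0.39 in RNA-seq, opposite in sign. In RNA-seq after doxycycline the values were 136, 117 and 133 CPM in parental and 35.2, 32.4 and 35.8 CPM in regrown cells (-1.92 ± 0.09, adjusted p = 9.76e-07). ABCG1, its partner in efflux, had 0 to 3 counts a group in RNA-seq and was tested nowhere.

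FADS1, a desaturase of polyunsaturated fatty acids, fell in both assays, with a larger fitted change in RNA-seq than in PRO-seq. PRO-seq gave 38.8, 33.5 and 37.4 CPM in parental and 17.6, 17 and 14.3 CPM in regrown cells (-1.17 ± 0.13, adjusted p = 0.00011). RNA-seq gave 46.9, 38.5 and 41.4 CPM against 5.44, 3.69 and 5.17 CPM (-3.15 ± 0.16, adjusted p = 5.29e-09). Groups were apart in both assays. The DGE change with DMSO was -1.86, between these values, and differences between the assays' changes were not tested. FADS2, beside it on the chromosome, was low in RNA-seq and not called (0.32 ± 0.34). ELOVL6 moved up: 84.8, 82.9 and 71.7 CPM to 128, 128 and 120 CPM in PRO-seq (0.65 ± 0.10, adjusted p = 0.000594) and 22.9, 26.2 and 27.1 CPM to 62.7, 60.4 and 64.3 CPM in RNA-seq (1.29 ± 0.11, adjusted p = 3.46e-07).

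ACSS2, which makes acetyl-CoA from acetate, was lower in both assays. Its levels were 80.5, 75.1 and 63.2 CPM in parental and 37.9, 45 and 56.1 CPM in regrown PRO-seq libraries (-0.65 ± 0.15, adjusted p = 0.00696). In RNA-seq they were 73.3, 62.9 and 68.3 CPM against 33.2, 29.6 and 32 CPM (-1.11 ± 0.10, adjusted p = 1.22e-06). The other fatty acid genes varied less: SCD was called higher in PRO-seq alone (0.38, lost on leaving out any 1 of 4 libraries, parental 2 or 3 or regrown 2 or 3), where 17 of its 24 neighbours rose too, with a median of 0.49. ACLY was called higher in RNA-seq alone (0.27), and lost the call without parental library 2 or 3 or regrown library 3 and under library-size scaling, no filter, the replicate block and the length covariate described with the knockout. ACACA and FASN were called in neither comparison.

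The regulators diverged. SREBF1 went from 121, 104 and 114 CPM to 71.6, 77.8 and 81.5 CPM in PRO-seq (-0.55 ± 0.10, adjusted p = 0.00176) and from 125, 125 and 133 CPM to 62.8, 78.7 and 62.4 CPM in RNA-seq (-0.91 ± 0.10, adjusted p = 8.01e-06). Its 24 neighbours also had negative medians, -0.29 and -0.39. SREBF2 was not called in PRO-seq, at 113, 96.6 and 87.3 CPM against 99.9, 116 and 111 CPM (0.14 ± 0.11, adjusted p = 0.385). In RNA-seq it rose from 137, 124 and 123 CPM to 206, 217 and 194 CPM (0.68 ± 0.09, adjusted p = 2.83e-05). SCAP rose in both, by 0.36 in PRO-seq (adjusted p = 0.0107, lost without parental library 2) and 0.44 in RNA-seq (adjusted p = 0.00326), beside neighbours with medians of 0.32 and 0.65. INSIG1 was called in neither, with 39.9, 40.4 and 41.3 CPM against 27.2, 51.8 and 48.9 CPM in PRO-seq (0.07 ± 0.20).

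**Figure D3:**
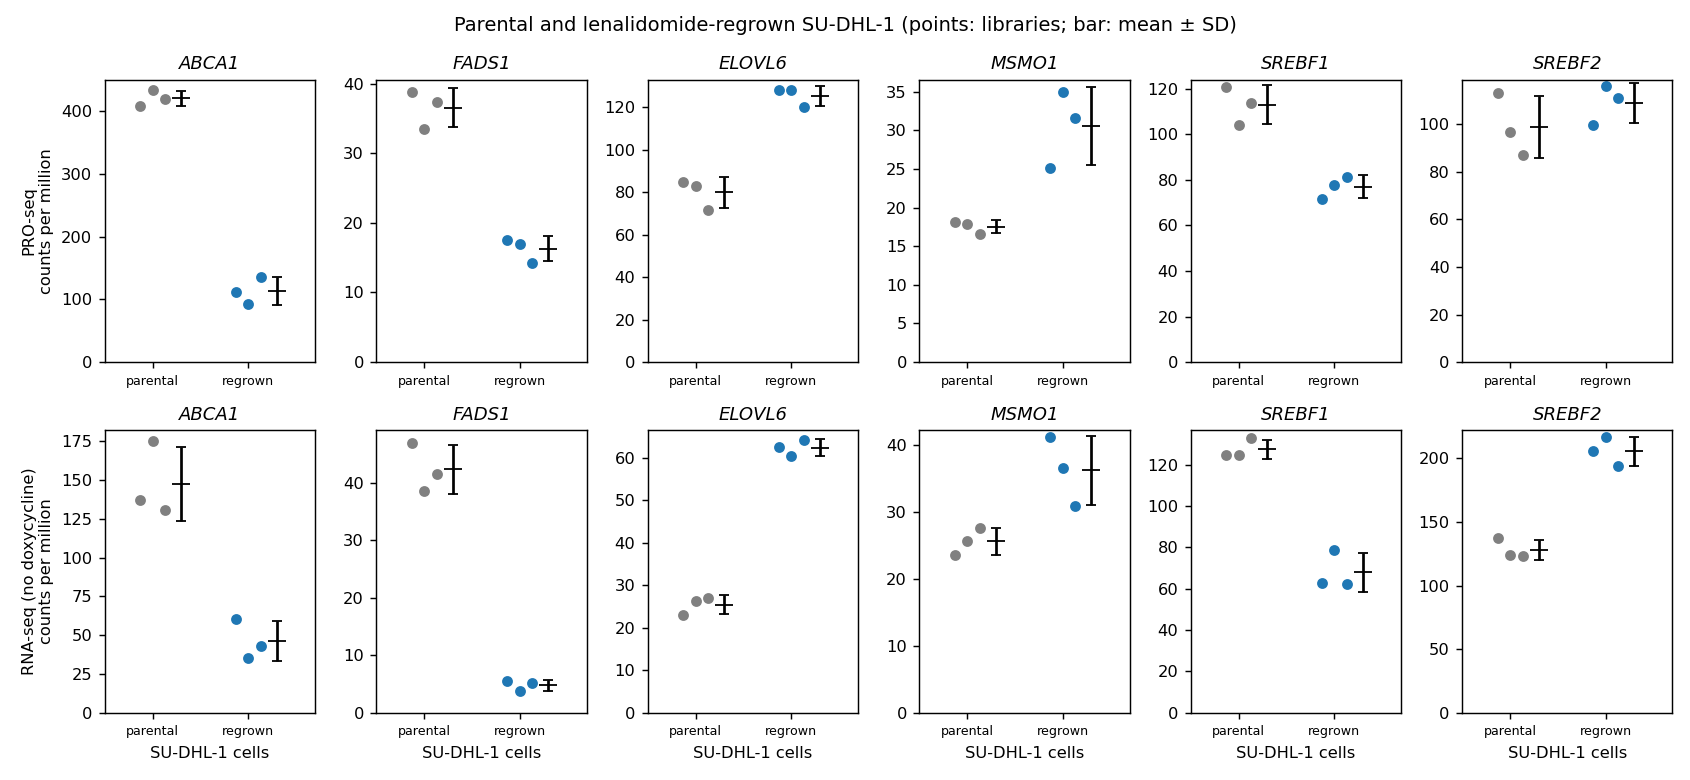
Levels (CPM) of 6 genes in parental and regrown SU-DHL-1 in PRO-seq (top) and in RNA-seq without doxycycline (bottom); points are libraries and the bar is the mean ± SD of 3. ABCA1, FADS1 and SREBF1 lie lower and ELOVL6 and MSMO1 higher in regrown cells in both assays, while SREBF2 overlaps in PRO-seq and is apart in RNA-seq.

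Within PRO-seq, regrown library 1 was the lowest of the 3 regrown libraries for 18 of 31 members (58.1%) and for 42.4% of all genes tested. INSIG1 measured 27.2 CPM there and DHCR7 21.8 CPM, against 41.7 and 41.9 CPM for DHCR7 in the other two. Without that library INSIG1 was called higher (0.31, adjusted p = 0.0363) and so was DHCR7 (0.72, adjusted p = 0.00193), and the members called became 7 higher and 7 lower. MSMO1 was called with it: 18.1, 17.9 and 16.6 CPM in parental and 25.1, 35 and 31.6 CPM in regrown cells (0.80 ± 0.15, adjusted p = 0.00225). In RNA-seq MSMO1 rose from 23.6, 25.7 and 27.7 CPM to 41.2, 36.6 and 31 CPM (0.50 ± 0.13, adjusted p = 0.0061).

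In the mevalonate pathway, RNA-seq called ACAT2 (0.60, 25.9, 25 and 25 CPM to 40, 37 and 38.1 CPM), HMGCS1 (0.41) and FDFT1 (0.38) higher in regrown cells, and PRO-seq called none of these. IDI1 was called in PRO-seq, at 82.8, 73 and 74.9 CPM against 87.8, 118 and 127 CPM (0.53 ± 0.13, adjusted p = 0.0124), a call lost without parental library 2 or 3. MVD fell in both assays (-0.70 and -0.69), as did the region around it: its 24 neighbours had medians of -0.63 and -0.88, with 20 and 22 of them called lower. CYP51A1 was lower in PRO-seq (74, 86.1 and 65.5 CPM to 44, 46.9 and 43.5 CPM, -0.75 ± 0.11, adjusted p = 0.000671). Its RNA-seq levels were 15.1, 17.4 and 16.5 CPM against 10, 9.52 and 7.4 CPM (-0.86 ± 0.17, adjusted p = 0.000806). HSD17B7 fell in RNA-seq from 519, 533 and 578 CPM to 294, 321 and 277 CPM (-0.87 ± 0.09, adjusted p = 3.29e-06) and in PRO-seq by 0.40 (adjusted p = 0.0404), the latter lost without parental library 1 or 2 or regrown library 2 or 3. The 24 neighbours of HSD17B7 had a median of -0.45 in RNA-seq, with 11 called lower, and of 0.07 in PRO-seq, with 5 called lower. TM7SF2 (0.60) and LSS (-0.44) were called in RNA-seq alone, TM7SF2 not without parental library 2 or regrown library 1 or 3, and LSS not without parental library 2 or regrown library 3.

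Over the 31 members in both assays, 12 were called in PRO-seq and 18 in RNA-seq, with 3 higher in both, 7 lower in both and 0 in opposite directions. The shared 10 were 83.3% of the PRO-seq calls and 55.6% of the RNA-seq calls. Over all 10983 genes tested in both assays, 933 were higher in both and 983 lower in both, 57.1% of the PRO-seq calls and 36.5% of the RNA-seq calls, and 156 genes were called in opposite directions; whether the members differ from this was not tested. Across the members the 2 sets of log2 changes had Pearson's r = 0.39 and Spearman's rho = 0.542, against r = 0.671 and rho = 0.476 across all these genes. Without SQLE the members' r was 0.806, a value with no counterpart among all genes, from which none was left out. Genes are not independent replicates.

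**Figure D4:**
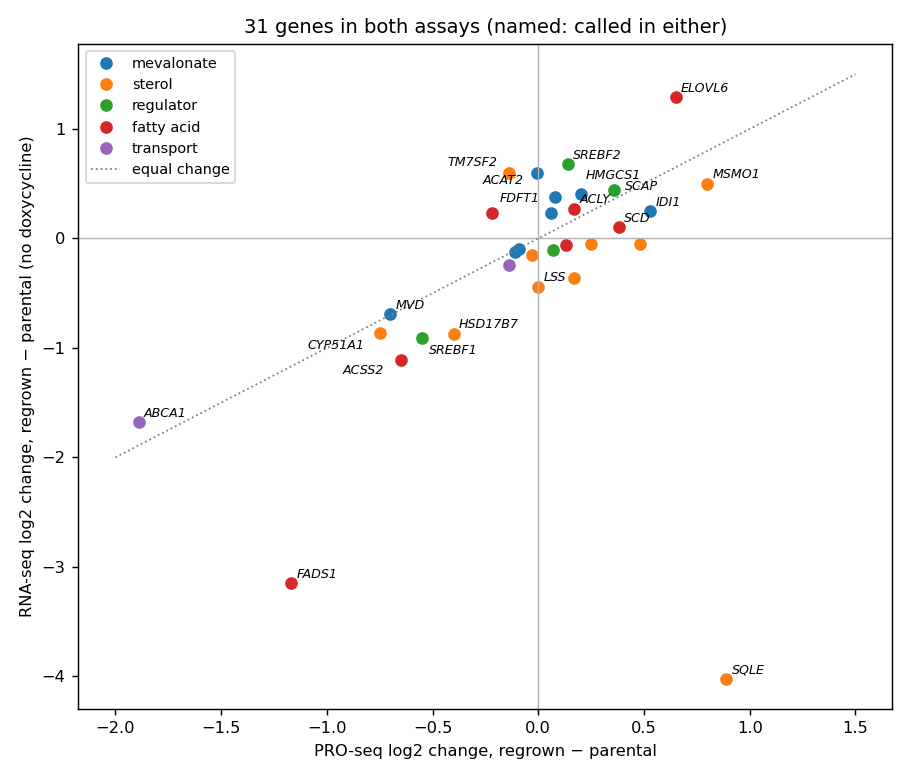
Log2 change between regrown and parental cells in PRO-seq (horizontal) and RNA-seq without doxycycline (vertical) for 31 genes coloured by role; named genes were called in either assay and the dotted line marks equal change. FADS1 (-1.17 and -3.15) lies below the line and SQLE (0.89 and -4.02) far from it.

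SQLE, squalene epoxidase, had few RNA reads in every group, and fewer in regrown cells. RNA-seq without doxycycline gave 1.51, 1.57 and 0.805 CPM in parental (72 counts in all) and 0.105, 0.0535 and 0.0601 CPM in regrown cells (4 counts). Relative to library totals that was 18.5-fold lower, with a 95% interval from counting error alone of 6.92 to 69.7 (fitted change -4.02 ± 0.73, adjusted p = 0.000483). After doxycycline the sums were 107 and 5 counts, 24.1-fold lower (10 to 75.7). PRO-seq did not show it: parental libraries had 1.59, 2.09 and 2.55 CPM and regrown ones 1.9, 0.652 and 8.9 CPM (0.89 ± 0.70, adjusted p = 0.367), with library 3 far above the others. DGE had 3 counts in parental and 12 in regrown cells with DMSO, 4.09-fold higher (1.1 to 22.6), opposite in direction to RNA-seq and resting on 15 counts. In KI-JK SQLE had 19 counts with the empty and 2 with the CSNK2B vector, 9.82-fold lower (2.37 to 87), too few for the test there.

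**Figure D5:**
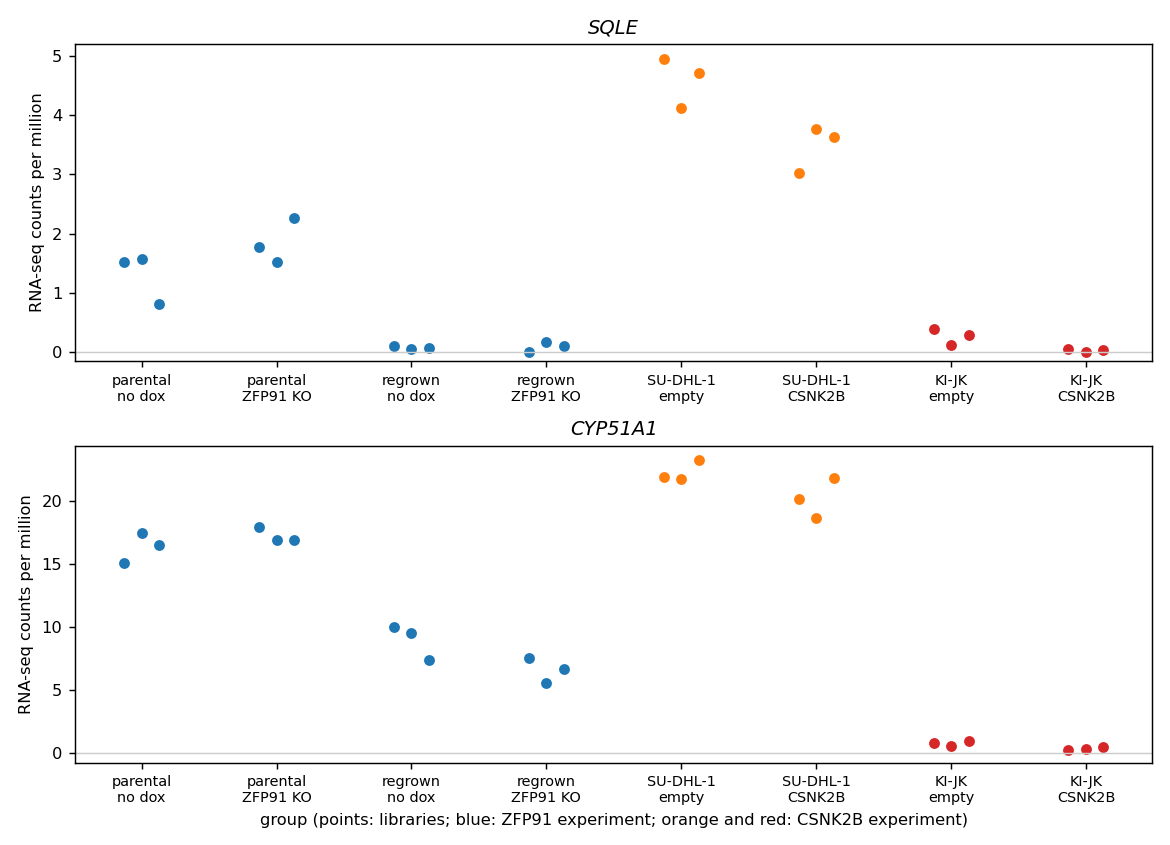
RNA-seq levels (CPM) of SQLE (top) and CYP51A1 (bottom) in the 8 RNA-seq groups; each point is 1 library. Both genes are lower in regrown than in parental cells and lower in KI-JK than in SU-DHL-1, with KI-JK empty-vector levels of at most 0.386 CPM for SQLE and 0.99 CPM for CYP51A1.

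DGE repeated 3 of the falls in regrown cells with DMSO: of 15 members tested, 0 rose and 3 fell, against 2.91% higher and 3.3% lower of all genes. ABCA1 measured 71.5, 59.5 and 39.1 CPM in parental and 11.2, 21.3 and 25.1 CPM in regrown libraries (-1.59 ± 0.42, adjusted p = 0.018), a call lost in DESeq2 (adjusted p = 0.0814). FADS1 measured 57.2, 42.5 and 75.1 CPM against 27.9, 2.66 and 17.9 CPM (-1.86 ± 0.48, adjusted p = 0.0141). HSD17B7 measured 504, 550 and 457 CPM against 363, 274 and 276 CPM (-0.74 ± 0.19, adjusted p = 0.0123). The 3 pairs of groups did not overlap, but at this depth single libraries decided the calls: without parental library 1 or regrown library 2 none was left, and without parental library 2 only 1. With lenalidomide, 0 of 13 members were called between regrown and parental cells, by edgeR or DESeq2, with 3 at an unadjusted p under 0.05 (background 1.2% higher and 1.57% lower). Leaving out the shallowest library, parental lenalidomide 3, called HSD17B7 there (-1.02, adjusted p = 0.04).

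Lenalidomide for 18 h gave no called change in the members tested, 16 in parental and 12 in regrown cells. HMGCS1, SQLE, LSS, MSMO1, CYP51A1 and SREBF2 were among those tested in neither. With simulated counts at these depths, the fits called 51% of 2-fold changes in parental and 27% in regrown cells. For the difference between the responses they called 8%. The changed genes were drawn from all genes tested, with a spread set by level alone, so the rates are not those of the members. Changes of that size in a tested member could still be missed. In parental cells 0 of 16 members were called by edgeR or DESeq2, and 0 had an unadjusted p under 0.05, against 0.673% of all genes higher and 0.173% lower. ACLY, which makes acetyl-CoA from citrate, had 423, 383 and 460 CPM with DMSO and 357, 394 and 336 CPM with lenalidomide (-0.18 ± 0.19). SCD had 109, 128 and 126 CPM against 90.7, 107 and 112 CPM (-0.26 ± 0.27), and IDI1 175, 207 and 174 CPM against 151, 158 and 89.5 CPM (-0.31 ± 0.24). DHCR7 had the most negative change, with 48.6, 85 and 63.1 CPM against 24.2, 56.3 and 0 CPM (-0.78 ± 0.42, adjusted p = 0.629). The DHCR7 values rest on 68 and 29 counts. Of the 2 myeloid markers in the table, CD163 rose in the same libraries and CSF1R did not. CD163 went from 126, 156 and 123 CPM with DMSO to 387, 260 and 537 CPM with lenalidomide. CSF1R had 28.6, 14.2 and 18 CPM with DMSO and 18.1, 16.1 and 0 CPM with lenalidomide, on 21 and 12 counts. The sum was 141 to 170 CPM with DMSO and 276 to 537 CPM with lenalidomide.

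In regrown cells 0 of 12 members were called by edgeR or DESeq2, against 0.23% higher and 0% lower of all genes, and 1 had an unadjusted p under 0.05. That gene was SCAP, at 30.7, 34.5 and 35.8 CPM with DMSO and 57.9, 69 and 65.8 CPM with lenalidomide (0.93 ± 0.43, adjusted p = 0.957); the groups did not overlap, on 34 and 39 counts. For the difference between the 2 responses edgeR and DESeq2 called 0 of 18 members, against 0% higher and 0% lower of all genes, and 2 members had an unadjusted p under 0.05. These were SCAP (1.40 ± 0.68) and FADS1 (2.04 ± 0.72), both with an adjusted p of 1 in edgeR. FADS1 had 45.4, 34.9 and 44.7 CPM in parental and 49.6, 23 and 57.2 CPM in regrown cells with lenalidomide. The fall seen with DMSO was not seen there, but these values rest on few reads. Parental library 3 held 41571 counts over all genes, and regrown libraries 1 and 2 held 122167 and 132406. Whether FADS1 is lower in regrown cells with lenalidomide is therefore not settled.

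After induction of the ZFP91 guide in parental cells, 1 of 32 members fell and 0 rose, against 0.367% lower and 0.0599% higher of all genes, with 6 members at an unadjusted p under 0.05. That 1 was INSIG1, at 49.2, 52.9 and 44 CPM without and 32.6, 29.1 and 30 CPM with doxycycline (-0.69 ± 0.10, adjusted p = 0.0284). The groups did not overlap, though the call was lost without any 1 of the 3 untreated libraries or doxycycline library 3. FDFT1 (98.2, 106 and 111 CPM to 68.8, 87.4 and 82.3 CPM, -0.41 ± 0.11) and IDI1 (114, 122 and 124 CPM to 75.5, 102 and 91.6 CPM, -0.43 ± 0.11) were apart too but not called (adjusted p = 0.232 and 0.243). Without the filter on low counts both passed, with adjusted p = 0.0163 and 0.00786. The 5 myeloid markers summed to 314 to 321 CPM without and 390 to 402 CPM with doxycycline, nearly all of it CD163. LYZ was at 0, and CSF1R went the other way, from 16.8, 14 and 14.5 CPM to 13.3, 11 and 12.6 CPM. The part of these markers in the INSIG1 result was not tested.

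In regrown cells 3 of 31 members rose and 7 fell, 9.68% and 22.6%, against 16.3% and 15.7% of all genes. IDI1 rose from 126, 173 and 130 CPM to 245, 209 and 201 CPM (0.60 ± 0.12, adjusted p = 0.0025), HSD17B7 by 0.42 and SREBF1 by 0.30. SCD fell from 970, 910 and 990 CPM to 700, 666 and 724 CPM (-0.46 ± 0.07, adjusted p = 0.000905). ACACA fell from 180, 153 and 189 CPM to 120, 130 and 142 CPM (-0.42 ± 0.09, adjusted p = 0.00559). With FADS1 (-0.86), ACSS2 (-0.30) and FASN (-0.23), 5 of the 8 fatty acid genes fell, and SCAP (-0.40) and TM7SF2 (-0.88) fell beside them. Leaving out untreated library 1, doxycycline library 1 or doxycycline library 2 left 6 calls each. The calls of SREBF1, ACSS2 and FASN held only when nothing or untreated library 2 was left out, and that of FADS1 also without doxycycline library 3.

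These libraries also differed in a measure of gene length, the correlation across genes between a library's deviation from the table mean and the log2 span of the gene. It was 0.139, 0.075 and 0.238 in untreated and -0.103, -0.088 and -0.043 in doxycycline-treated regrown libraries, without overlap. In parental cells it was 0.023, -0.034 and -0.151 against 0.109, -0.230 and -0.063, with overlap. With the measure as a covariate, a choice made after seeing the data, 0 of the 10 regrown calls held, and IDI1 had a change of 0.03. The measure was computed from these same libraries and nearly follows the treatment in regrown cells. That fit can hardly separate measure and treatment, so a loss of calls was likely in advance and decides nothing about them. In the same setting 8 members were called in parental cells, INSIG1 among them (-0.68). Between regrown and parental untreated cells, CYP51A1, MVD, SCAP, TM7SF2, LSS and ACLY also lost their calls with the covariate. The measure did not overlap between those groups either, so the same limit holds there.

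The responses of regrown and parental cells were compared as an interaction, called higher for 6 and lower for 2 of 32 members (18.8% and 6.25%), against 4.47% and 5.33% of all genes. IDI1 had the largest difference (1.03 ± 0.18, adjusted p = 0.0238), having risen in regrown cells and not been called in parental ones. TM7SF2 (-0.86 ± 0.24) and SCAP (-0.62 ± 0.17) were the 2 lower ones. INSIG1 was called higher (0.58 ± 0.14, adjusted p = 0.0301), with 48.9, 43.5 and 43.4 CPM untreated and 45.9, 38.3 and 43 CPM treated in regrown cells. With the length covariate only IDI1 and INSIG1 were called, at 0.74 and 0.68, and leaving out single libraries left between 0 and 12 calls. Scaling by library totals alone changed the split of all called genes from 638 higher and 761 lower to 977 and 463, with 6 members higher and 1 lower.

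Among doxycycline-treated cells, regrown against parental, 8 of 32 members were higher and 9 lower (25% and 28.1%), against 18.6% and 19.8% of all genes. Higher were IDI1 (1.26), ELOVL6 (0.97), MSMO1 (0.89), FDFT1 (0.88), HMGCS1 (0.78), SREBF2 (0.66), ACAT2 (0.47) and INSIG1 (0.45), which include 4 of the 8 mevalonate genes. Lower, besides SQLE and ABCA1, were FADS1 (-3.87), ACSS2 (-1.46), CYP51A1 (-1.41), MVD (-0.76), SREBF1 (-0.72), FASN (-0.47) and HSD17B7 (-0.39), the last of these not without parental library 3 or regrown library 2 or 3. These values come from other libraries than the untreated comparison, but of the same cells.

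Of the 32 further lipid genes, 3 of 28 tested rose and 6 fell in regrown PRO-seq, 10.7% and 21.4%. The shares of all genes there were 14% and 16.2%. In RNA-seq 6 of 29 rose and 10 fell, 20.7% and 34.5%, against 22.6% and 21.1% of all genes. Whether this list differs from all genes was not tested, and the genes named next are mainly fallers. HSD17B12, a reductase of fatty acid elongation, went from 132, 129 and 105 CPM to 88.1, 67.9 and 61.5 CPM in PRO-seq (-0.75 ± 0.14) and from 15.1, 19.6 and 16.5 CPM to 0.261, 2.73 and 0.361 CPM in RNA-seq (-3.91 ± 0.49, adjusted p = 2.03e-05). The protease gene MBTPS1, whose product cuts SREBPs, fell by 0.62 and 0.68, and ACSL1 by 0.58 and 0.86. INSIG2 fell in RNA-seq alone (-1.19). NR1H3, which encodes a liver X receptor, was called in opposite directions, at 0.48 in PRO-seq and -0.67 in RNA-seq. CD163 moved with the comparison, from 298, 307 and 302 CPM to 4.81, 4.97 and 7.76 CPM in RNA-seq, with summed levels of the 5 myeloid markers of 314 to 321 and 10.5 to 15.2 CPM and LYZ at 0. In PRO-seq the 2 myeloid markers in the table, CD163 and CD68, summed to 198 to 230 and 79.8 to 110 CPM. Their part in these results was not tested.

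KI-JK and SU-DHL-1 with the empty vector differed in nearly all members: 12 of 32 were higher and 18 lower in KI-JK (37.5% and 56.2%), against 40.1% and 38.7% of all genes. INSIG1 (1.44), ELOVL6 (1.47), FADS2 (1.15), MSMO1 (1.13), HMGCS1 (0.99), EBP (0.96) and SREBF2 (0.83) were the higher ones with the largest changes. CYP51A1 had 59 counts in KI-JK and 1239 in SU-DHL-1, 27.9-fold lower (95% counting interval 21.5 to 36.9), and SQLE 19 and 260 counts, 18.2-fold lower (11.4 to 30.7). LSS, which acts between these 2 enzymes, was also lower (-1.01). Lower too were ACSS2 (-2.50), HSD17B7 (-2.40), IDI1 (-2.13), ABCA1 (-1.89), MVK (-1.77), ACLY (-1.74), ACAT2 (-1.59), ACACA (-1.48) and SCD (-1.47). FDFT1 and SC5D were not called, at -0.01 and -0.07. Of the further lipid genes, TMEM97, a sterol-binding membrane protein, had 3 against 525 counts, a ratio of 233 with an interval from 79.1 to 1.13e+03. Line, serum and table cannot be told apart in these differences.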

How the data were processed

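The deposited tables hold counts per gene, whole numbers that differ in total between libraries, with no normalization by the authors. PRO-seq used cutadapt 1.14, Bowtie 1.2.2 and featureCounts 1.6.2 on hg38, DGE Bowtie2 2.2.3 on hg19, and RNA-seq STAR 2.6.1d on hg38, all per the submitters' processing notes. The RNA-seq counting tool, its use of strand, and whether DGE molecular identifiers were collapsed are not given in the sources used here, so intervals cover counting error only. PRO-seq identifiers were matched to symbols for 17711 of 17792 genes. No 2 replicates agreed within sampling noise (the lowest ratio of chi-square to its degrees of freedom was 1.34).

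Each of 15 comparisons, 12 between pairs of groups and 3 interactions, was fitted to its own groups with edgeR 4.0.16 in R 4.3.3 (filterByExpr, TMM scaling, quasi-likelihood F test, two-sided), p-values adjusted across all tested genes (Benjamini-Hochberg) and a threshold of 0.05. SEs were taken as the size of the log2 change over the root of F. DESeq2 1.42.0, other scalings and filters, a replicate block, fits of all 4 groups of an experiment, and leaving out each library were alternatives. The fits were tested on simulated data with known changes. Per the labels, same-numbered regrown libraries come from the same pool, which pairs them within regrown cells; the block gave 11 calls in place of 10 for the guide and 0 for lenalidomide. Members, further lipid genes, markers and tests were chosen with earlier results of these data known. Named were the members, some called further lipid genes and genes that check the design; 1 item is not reported here.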

Additional observations from a re-analysis of the deposited data

Results flagged for a closer look

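The response to the CSNK2B vector differed between KI-JK and SU-DHL-1, by edgeR's interaction test with adjustment over all genes, for 14 members. The KI-JK change was lower than the SU-DHL-1 change in the mevalonate genes HMGCS1 (-0.40 ± 0.07, adjusted p = 8.74e-05), FDFT1 (-0.30 ± 0.06, adjusted p = 0.0011), IDI1 (-0.25 ± 0.07, adjusted p = 0.012) and FDPS (-0.22 ± 0.07, adjusted p = 0.0141). In sterol synthesis it was lower for MSMO1 (-0.75 ± 0.08), LSS (-0.68 ± 0.13) and DHCR7 (-0.31 ± 0.07, adjusted p = 0.00214). SQLE had a value of -2.62 ± 0.82 (adjusted p = 0.0221), which rests on 19 and 2 counts in KI-JK and was lost without empty-vector library 1 or CSNK2B library 2 of KI-JK. INSIG1 (-0.63 ± 0.07), SREBF2 (-0.28 ± 0.06, adjusted p = 0.000627), SCD (-0.31 ± 0.05, adjusted p = 6.29e-05) and the carrier STARD4 (-0.32 ± 0.10, adjusted p = 0.0222) were lower too. The STARD4 call was lost without empty-vector library 1 or CSNK2B library 2 of SU-DHL-1 or empty-vector library 1 or CSNK2B library 1 of KI-JK, and the FDPS call without CSNK2B library 1 of SU-DHL-1. HSD17B7 (0.32 ± 0.05, adjusted p = 3.73e-05) and FASN (0.27 ± 0.05, adjusted p = 0.000375) were higher.

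The response to the ZFP91 guide differed between regrown and parental cells, by the same test, for 8 members. Higher in regrown cells were IDI1 (1.03 ± 0.18), INSIG1 (0.58 ± 0.14), FDFT1 (0.53 ± 0.13, adjusted p = 0.0306), STARD4 (0.52 ± 0.14, adjusted p = 0.0383), HSD17B7 (0.51 ± 0.14, adjusted p = 0.0371) and HMGCS1 (0.40 ± 0.12, adjusted p = 0.048). Lower were SCAP (-0.62 ± 0.17, adjusted p = 0.0379) and TM7SF2 (-0.86 ± 0.24, adjusted p = 0.0394). Each of these calls was lost on leaving out 7 to 10 of the 12 libraries in turn, and with the length measure as covariate IDI1 and INSIG1 alone remained. Groups of 3 libraries were not searched for outlying samples.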

How the results depend on the processing

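Leaving out each library in turn gave these ranges of members called: 8 to 14 in regrown PRO-seq, 15 to 19 in regrown RNA-seq without and 16 to 21 with doxycycline, 0 to 1 for the guide in parental and 6 to 13 in regrown cells, 0 to 12 for its interaction, 2 to 3 for the CSNK2B vector in SU-DHL-1, 14 to 16 in KI-JK, 13 to 17 for its interaction, and 30 to 30 between the lines. In DGE they were 0 to 3 for regrown cells with DMSO, 0 to 1 with lenalidomide, 0 to 0 for lenalidomide in parental cells, 0 to 0 in regrown cells and 0 to 0 for the interaction. The interaction of the guide had no call left without parental doxycycline library 3, parental untreated library 2 or 3, regrown doxycycline library 1 or 2, or regrown untreated library 1 or 3, 1 without regrown doxycycline library 3 and 3 without parental doxycycline library 1. Over the members' calls, these fits gave 924 values, of which 779 were still called, 145 were not and 0 changed sign.

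Fitting all 4 DGE groups together left 1 member called between regrown and parental cells with DMSO and 1 with lenalidomide. The replicate block, which pairs libraries of the same number, also gave 1 call with lenalidomide; elsewhere it left 12 calls in PRO-seq, 17 and 17 in regrown RNA-seq, 16 in KI-JK, 16 and 10 for the interactions of vector and guide. Same-numbered libraries correlated between -0.11 and 0.22, and in no comparison was every pair over 0.1. Regrown libraries of the same pool gave only 0.01 to 0.10 for the guide and -0.07 to 0.12 for lenalidomide. These correlations therefore cannot show whether other libraries are paired. Between regrown and parental cells, 6 of 6 libraries correlated best with their own number in DGE with DMSO. In RNA-seq without doxycycline 0 of 6 did. The main fits took no numbers as pairs, and the replicate block gives the paired fits. Without the filter on low counts the guide in parental cells gave 3 calls. The length covariate was added after seeing the data and can hardly be separated from the treatment in regrown cells. It gave 8 calls for the guide in parental cells, 0 in regrown cells and 2 for the interaction. With it, changes reversed in regrown cells for ACACA (0.05), SREBF1 (-0.07), ACACB (0.31), ACAT1 (-0.14), ACSL4 (0.13), MCAT (-0.16), NPC1 (0.04) and SLC25A1 (-0.17); the cause was not tested. Other alternatives than leaving out a library gave 894 values for the members' calls, 857 still called, 35 not and 2 reversed. Depth limits DGE most, where 12 to 18 members passed the filter on low counts, and SQLE and ABCG1 in RNA-seq.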
